A study of Mus musculus with 12 samples.

Results

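The genes described here encode caspases, parts of the apoptosome and regulators around them: Apaf1, Casp8, Casp9, Cycs, Diablo, Birc2, Birc3, Birc5 and Fadd. They were taken by name from the nearest-gene column of the lists of called Jmjd2a and Jmjd2c peaks and from the table of start sites bound by both proteins. All 9 were found, of 11874 gene names in those tables and 26219 RefSeq genes with a curated transcript. They are named by 10 of 10521 Jmjd2c peaks, 3 of 8977 Jmjd2a peaks and 2 of 6940 co-bound start-site windows.

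Jmjd2a (Kdm4a) and Jmjd2c (Kdm4c) are histone demethylases that act on methylated lysines 9 and 36 of histone H3. The cells are leukaemic granulocyte-macrophage progenitors (L-GMP) from leukaemic mice, transformed by the fusion oncogene MLL-AF9, on a C57BL/6 background. Their genotype is Jmjd2a/b/cf/f;Rosa26::CreERT2, so untreated and treated cells alike carry floxed alleles of all 3 demethylase genes and a Cre recombinase that 4-hydroxytamoxifen (OHT) switches on. Control cells (Ctrl) were untreated, and OHT cells received 500 nM OHT for 96 h, and both were grown with 10 ng/ml of the cytokine IL-3 in medium containing 20% serum. Chromatin immunoprecipitation with sequencing gave 12 libraries in 8 groups, 1 per condition for Jmjd2a and for Jmjd2c and 2 per condition for each of H3K9me3 and H3K36me3. The peak tables hold positions only, with no height, no p-value and no value per library, and the sources used here do not say which libraries were behind each list. Depth is therefore unknown, no difference between OHT and control was examined, and H3K9me3 and H3K36me3 were left unanalysed here. How many independent lines the libraries represent is not stated in the labels, and the labelled cell type was not checked, since peak positions hold no marker expression. Every count below is a description of 1 peak list per protein, without replicates and without a test.

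Apoptosis runs through a family of proteases, the caspases, that are made as inactive precursors. In the mitochondrial route cytochrome c leaks from mitochondria and binds APAF1, which assembles into the apoptosome and activates caspase-9. In the death receptor route the adaptor FADD brings caspase-8 to an engaged receptor. Inhibitor of apoptosis (IAP) proteins, many of whose genes carry the prefix Birc, restrain death signalling or caspases, and SMAC, the product of Diablo, relieves that block. Blood cells deprived of their cytokine die largely by the mitochondrial route.

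All 9 genes had a called Jmjd2c peak within 1000 bp of a start site, and Apaf1 and Diablo had a Jmjd2a peak as well. The other 7 genes (Casp8, Casp9, Cycs, Fadd, Birc2, Birc3 and Birc5) had Jmjd2c alone. Over all RefSeq genes with a curated transcript, 37.9% had Jmjd2c at a start site by the same measure, 27.4% had Jmjd2a and 24.5% had both. All 9 members code for proteins, and over the 21031 protein-coding genes the shares were 44.6%, 32.3% and 28.9%. A gene entered the set only if the peak tables name it, which for each of the 9 meant a called peak, so the Jmjd2c count (9 of 9) was largely fixed by that choice and nothing is read from it against the background. The Jmjd2a count was 2 of 9, or 22.2%, and 1 gene more would have put it above the share of protein-coding genes. The choice bears on this count too, because that share includes genes with no peak. Among protein-coding genes with Jmjd2c, which all 9 members had, 64.9% also had Jmjd2a, and the difference was not tested.

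**Figure D1:**
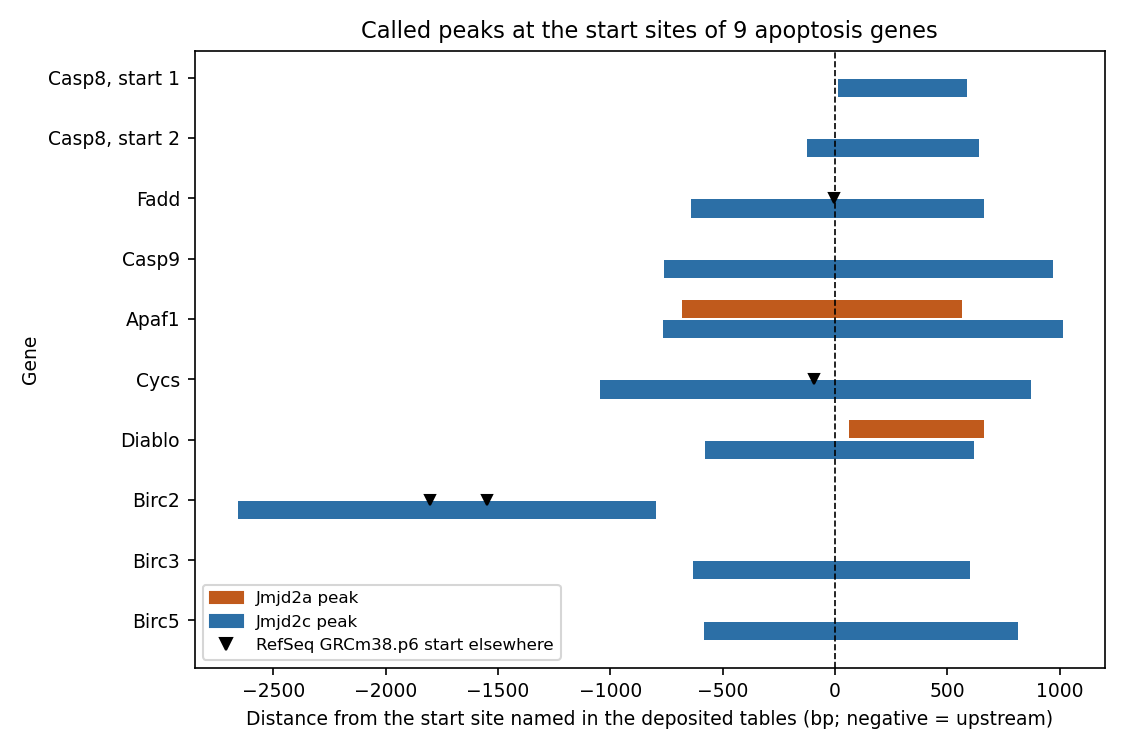
Called Jmjd2a peaks (orange) and Jmjd2c peaks (blue) around the start sites of the 9 genes, drawn in the direction of transcription; the x axis is the distance in bp from the start site named in the deposited tables (dashed line), and triangles mark RefSeq start sites that lie elsewhere. Blue bars span the start at most genes, the Birc2 bar lies wholly upstream but under both of its RefSeq starts, and orange bars are present at Apaf1 and Diablo alone.

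The promoters of 7 of the genes are shown because they hold the contrast described further on, between starts rich in CG dinucleotides (CpG) and starts that are poor in them. Each line gives the 250 bases before the RefSeq start site on GRCm38.p6, whose main chromosomes are those of mm10, 5′ to 3′ on the gene's strand, with every CG in capitals. Apaf1 (chr10:91082744-91082993, minus strand) and Diablo (chr5:123524165-123524414, minus strand) had both proteins. Cycs (chr6:50566570-50566819, minus strand), Casp9 (chr4:141793362-141793611, plus strand) and Birc2 (chr9:7837058-7837307, minus strand) had Jmjd2c alone over a CG-rich start. Casp8 (chr1:58802252-58802501, plus strand) and Birc3 (chr9:7873171-7873420, minus strand) had Jmjd2c alone over a start with few CGs.
Apaf1: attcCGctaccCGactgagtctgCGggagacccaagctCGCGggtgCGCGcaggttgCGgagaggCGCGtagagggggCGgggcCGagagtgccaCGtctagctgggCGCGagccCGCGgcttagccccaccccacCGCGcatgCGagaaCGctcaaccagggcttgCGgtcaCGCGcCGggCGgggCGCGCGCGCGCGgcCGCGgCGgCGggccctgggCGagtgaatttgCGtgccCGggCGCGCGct
Diablo: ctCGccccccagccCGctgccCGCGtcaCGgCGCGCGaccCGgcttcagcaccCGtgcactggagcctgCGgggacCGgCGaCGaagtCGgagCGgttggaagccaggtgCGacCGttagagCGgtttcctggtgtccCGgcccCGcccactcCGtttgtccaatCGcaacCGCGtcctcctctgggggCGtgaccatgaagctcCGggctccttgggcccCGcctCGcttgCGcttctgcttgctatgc
Cycs: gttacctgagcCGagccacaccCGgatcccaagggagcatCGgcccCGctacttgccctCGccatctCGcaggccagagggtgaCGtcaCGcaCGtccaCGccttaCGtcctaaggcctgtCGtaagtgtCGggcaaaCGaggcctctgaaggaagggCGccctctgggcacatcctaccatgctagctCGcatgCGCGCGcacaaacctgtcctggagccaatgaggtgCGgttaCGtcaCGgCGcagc
Casp9: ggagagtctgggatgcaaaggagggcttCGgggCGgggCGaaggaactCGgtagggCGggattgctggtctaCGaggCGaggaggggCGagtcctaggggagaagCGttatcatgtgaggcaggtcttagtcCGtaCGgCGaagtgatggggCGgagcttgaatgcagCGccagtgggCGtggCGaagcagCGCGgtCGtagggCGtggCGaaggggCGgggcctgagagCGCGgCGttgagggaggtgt
Birc2: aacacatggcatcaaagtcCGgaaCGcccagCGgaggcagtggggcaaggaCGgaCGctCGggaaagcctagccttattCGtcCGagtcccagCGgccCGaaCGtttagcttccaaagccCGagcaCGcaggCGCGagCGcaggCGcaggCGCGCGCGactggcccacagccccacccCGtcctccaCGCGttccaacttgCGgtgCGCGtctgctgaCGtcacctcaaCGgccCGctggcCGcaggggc
Casp8: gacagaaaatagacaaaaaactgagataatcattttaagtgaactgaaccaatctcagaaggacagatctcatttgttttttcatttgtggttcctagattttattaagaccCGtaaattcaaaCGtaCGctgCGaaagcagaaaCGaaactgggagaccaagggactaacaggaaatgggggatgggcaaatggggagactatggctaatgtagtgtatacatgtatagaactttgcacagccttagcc
Birc3: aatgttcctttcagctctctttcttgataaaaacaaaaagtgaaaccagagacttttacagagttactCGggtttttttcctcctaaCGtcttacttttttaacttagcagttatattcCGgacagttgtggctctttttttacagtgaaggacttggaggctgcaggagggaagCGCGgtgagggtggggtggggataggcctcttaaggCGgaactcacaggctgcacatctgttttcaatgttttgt

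Apaf1, the scaffold of the apoptosome, carried both proteins over its start (chromosome 10, 91082743, minus strand; gene 90989311 to 91082743, mm10). Its Jmjd2a peak was 1250 bp wide (91082177 to 91083426) and lay wholly inside a Jmjd2c peak of 1785 bp (91081727 to 91083511), of which it covered 70%. Of all Jmjd2a peaks near start sites 85.2% were narrower, and of all Jmjd2c peaks near start sites 78.3% were narrower. The promoter is shared: Ikbip, transcribed the other way, starts 296 bp from Apaf1, and the tables name both genes for either peak, so the peaks cannot be assigned to one of them. The features under the peaks were exon, intron, coding sequence and 5′ untranslated region. A further Jmjd2a peak of 522 bp (90969602 to 90970123) has Apaf1 as its nearest start, but lies 112620 bp from it over exon, intron, coding and 3′ untranslated sequence of Anks1b, and no Jmjd2c peak overlapped it.

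Cycs, which encodes cytochrome c, had the widest Jmjd2c peak of the 9 genes, at 1919 bp (chromosome 6, 50565602 to 50567520). Of the Jmjd2c peaks near start sites 84.1% were narrower. This promoter also faces both ways. The noncoding RNA gene 5430402O13Rik starts 74 bp from the RefSeq start of Cycs (50566569, minus strand), and the peak covered both starts. The deposited annotation also names the microRNA gene Mir6371 under this peak. The deposited tables place the start of Cycs 95 bp further into the gene, at 50566474. No Jmjd2a peak was called within 29583 bp of the RefSeq start, so the second shared promoter differs from that of Apaf1 in this respect.

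Casp9, the initiator caspase that the apoptosome activates, had a Jmjd2c peak of 1732 bp over its start (chromosome 4, 141792852 to 141794583; start 141793612, plus strand). It reached 760 bp upstream and 971 bp downstream of the start. Dnajc16, a DnaJ family gene, starts 2968 bp away on the other strand and had a Jmjd2c peak of its own, 986 bp wide (141790099 to 141791084), with 1767 bp free of peaks between them. The deposited annotation also names Dnajc16 among the genes lying under the Casp9 peak, so that peak cannot be assigned to Casp9 alone. The nearest Jmjd2a peak lay 58548 bp from the Casp9 start.

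Diablo, whose product SMAC binds IAP proteins, was the other gene with both proteins. Its Jmjd2c peak of 1197 bp (chromosome 5, 123523547 to 123524743) spanned the start at 123524164 (minus strand) almost evenly, with 579 bp upstream and 617 bp downstream. The Jmjd2a peak of 600 bp (123523502 to 123524101) did not reach the start. It began 63 bp downstream, over exon, intron and coding sequence, and 92.5% of it lay within the Jmjd2c peak. Of all Jmjd2a peaks near start sites 32.3% were narrower, and of all Jmjd2c peaks 36.5%, so both peaks at Diablo were narrower than the medians (761 and 1366 bp). Among the genes lying under the peaks the tables also name the microRNA gene Mir7647, for both, and they list it with a co-bound window, so Diablo and Mir7647 share these calls.

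Fadd, the adaptor that links death receptors to caspase-8, had a Jmjd2c peak of 1304 bp centred 12 bp downstream of its start (chromosome 7, 144581773 to 144583076; start 144582436, minus strand). It covered exon, intron, coding sequence and 5′ untranslated region. In the RefSeq promoter table, the nearest start of another gene was that of Ppfia1, 28712 bp away, which had both proteins. The closest Jmjd2a peak to Fadd was 28090 bp off, over the Ppfia1 start.

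Casp8, the initiator caspase of the death receptor route, was the one gene of the 9 with more than 1 Jmjd2c peak. The deposited tables give it 2 start sites 7128 bp apart, and each had a peak. The first peak was 575 bp wide (chromosome 1, 58795385 to 58795959) and began 11 bp downstream of the start at 58795374. The second was 765 bp wide (58802377 to 58803141) and covered the start at 58802502, reaching 125 bp upstream and 639 bp downstream. These were the narrowest Jmjd2c peaks of the set. Of all Jmjd2c peaks near start sites only 4.3% were narrower than the first and 11.4% narrower than the second. Having several Jmjd2c peaks at start sites was uncommon, as 419 protein-coding genes (4.47% of those with Jmjd2c) had 2 or more. The nearest Jmjd2a peak to Casp8, 79548 bp upstream of its first start, lay 1891 bp from a start of Cflar. That neighbouring gene encodes the caspase-8 inhibitor FLIP and had a Jmjd2a peak of 325 bp and a Jmjd2c peak of 982 bp at its own start.

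The IAP genes Birc2 and Birc3, which encode the ubiquitin ligases cIAP1 and cIAP2, lie next to each other on chromosome 9. Both are read from the minus strand, and 34658 bp separate their Jmjd2c peaks. Birc3 had a peak of 1232 bp (7872570 to 7873801) whose centre lay at -16 bp, upstream of its start at 7873170. The Birc2 peak was wider, at 1860 bp (7836052 to 7837911), and its position depends on the annotation. The deposited tables put the Birc2 start at 7835255, which leaves the peak 797 bp upstream of it. RefSeq on GRCm38.p6 has starts at 7837057 and 7836806, and the peak covered both. For 6 of the 9 genes a RefSeq start coincided with a deposited one, at Casp8 with the second of its 2 sites only. The first deposited Casp8 start has no entry in the RefSeq promoter table. With the RefSeq starts, Jmjd2c covered a start of all 9. The nearest Jmjd2a peak to either gene was over the start of Tmem123, 70629 bp from Birc2 and 108544 bp from Birc3.

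Birc5 encodes survivin, an IAP family member best known as a subunit of the chromosomal passenger complex that guides cell division. It had a Jmjd2c peak of 1398 bp (chromosome 11, 117848652 to 117850049) that reached 585 bp upstream and 812 bp downstream of its start at 117849237 (plus strand). Its width was close to the middle of the list, with 52.5% of Jmjd2c peaks near start sites narrower. The nearest Jmjd2a peak lay 23740 bp away at Tha1.

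The Jmjd2c peaks of the set had widths and reach near those of the whole list. The 10 peaks at the 9 genes ran from 575 to 1919 bp with a median of 1351 bp, against a median of 1366 bp and an interquartile range of 1031 to 1729 bp over the 9053 Jmjd2c peaks near start sites. The 8 peaks that covered a start site of the deposited tables reached a median of 636 bp upstream and 738 bp downstream, and 6 of the 8 reached further downstream. Over 8975 RefSeq start sites under a Jmjd2c peak the medians were 612 and 824 bp, and the reach was longer downstream at 68.5%. The tables mark 5 of the 10 peaks with the feature promotor, at Apaf1, Casp9, Cycs, Diablo and Birc2. Of all Jmjd2c peaks near start sites 26.4% carried it. The peaks at Apaf1, Casp9, Cycs and Birc2 were also the widest of the set. The count rests on 10 peaks, and the difference was not tested. No Jmjd2c peak was called inside the bodies of the 9 genes away from their starts. Within 10 kb of them, the Jmjd2c peaks at Dnajc16 and beside B3gnt4, next to Diablo, were the only others.

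**Figure D2:**
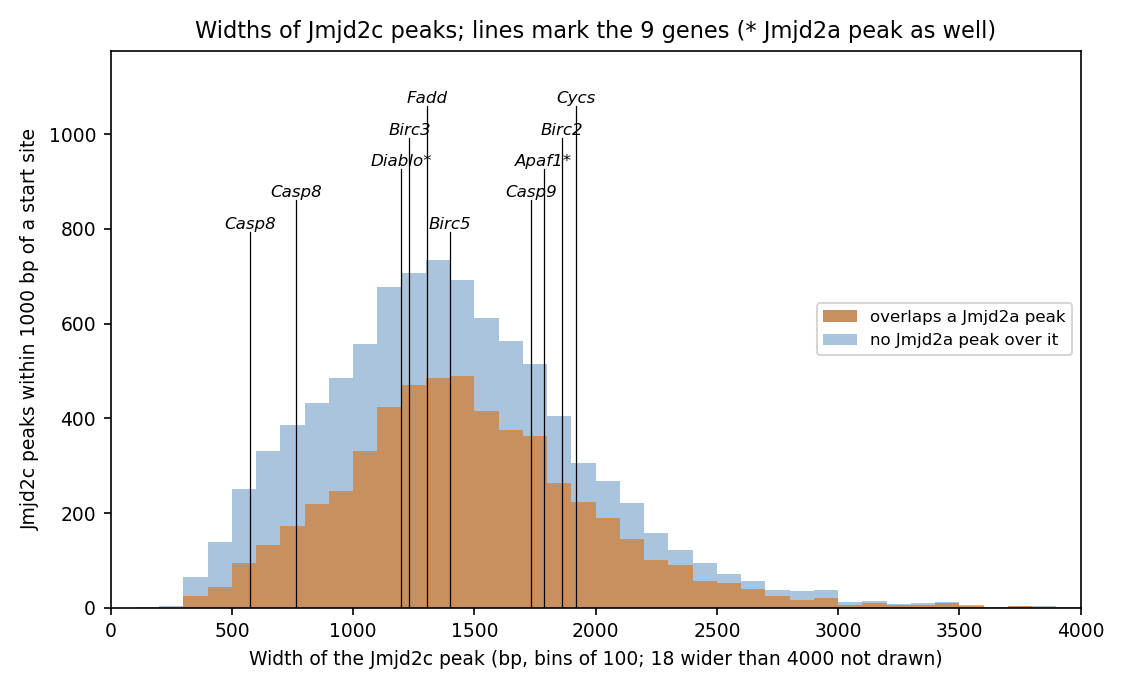
Widths in bp of the 9053 Jmjd2c peaks within 1000 bp of a start site, in bins of 100 bp, split by whether a Jmjd2a peak overlaps (orange) or not (blue); black lines mark the 10 peaks of the 9 genes, and an asterisk marks a Jmjd2a peak at the same gene. Casp8 stands at the narrow end, with 575 and 765 bp, and Cycs, Birc2, Apaf1 and Casp9 have the widest peaks of the 9 genes, from 1732 to 1919 bp.

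Width alone did not separate the genes with Jmjd2a from those without. The Jmjd2c peaks near start sites were split by width into 4 groups of nearly equal number. Of the narrowest group (150 to 1031 bp) 45.6% overlapped a Jmjd2a peak, and of the wider groups 64.4%, 68.5% and 67.9% did. Both Casp8 peaks fell in the narrowest group and had none. The widest group (1730 to 5046 bp) held the peaks of Apaf1, Casp9, Cycs and Birc2, of which Apaf1 alone had Jmjd2a. In the group of 1032 to 1366 bp were Diablo, Birc3 and Fadd, with Jmjd2a at Diablo.

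The sequence at the starts separated Casp8 and Birc3 from the rest. CG content is expressed as the observed number of CG dinucleotides over the number expected from the C and G content of the 300 bases from 250 before to 50 after a start. The ratio was 1.12 at Apaf1, 1.10 at Diablo, 1.14 at Casp9, 1.01 at Cycs, 0.81 at Fadd and 0.76 at Birc5. Birc2 had 1.01 at its outer RefSeq start and 0.78 at the inner one. The second start of Casp8, the one in the promoter table, had 0.38 with 5 CGs in 300 bases, and Birc3 had 0.52 with 7. The median over 20488 promoters of protein-coding genes was 0.59. It was 0.82 for promoters with both proteins, 0.79 for those with Jmjd2c alone and 0.26 for those with neither.

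Both lists followed this ratio when the promoters were split by it into 10 groups of nearly equal number. In the group with the lowest ratios 1.95% had Jmjd2c and 0.977% had Jmjd2a within 1000 bp, and in the highest group, which holds Apaf1, Casp9, Cycs, Diablo and the outer Birc2 start, 83.9% and 61.2% did. A Jmjd2c peak at those 5 genes is thus what most promoters of that kind showed. Casp8 belongs to a group (0.29 to 0.44) in which 19.7% of promoters had Jmjd2c, and Birc3 to one (0.44 to 0.59) in which 41.7% did. Of the promoters with a ratio no higher than that of Casp8, 6.33% had Jmjd2c. Among promoters that had Jmjd2c, Jmjd2a was present at 30% in the lowest group, 47.4% in the Casp8 group, 56.9% in the Birc3 group and 67.4% in the highest. Base composition moved with both lists, and its part in the calls was not tested.

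**Figure D3:**
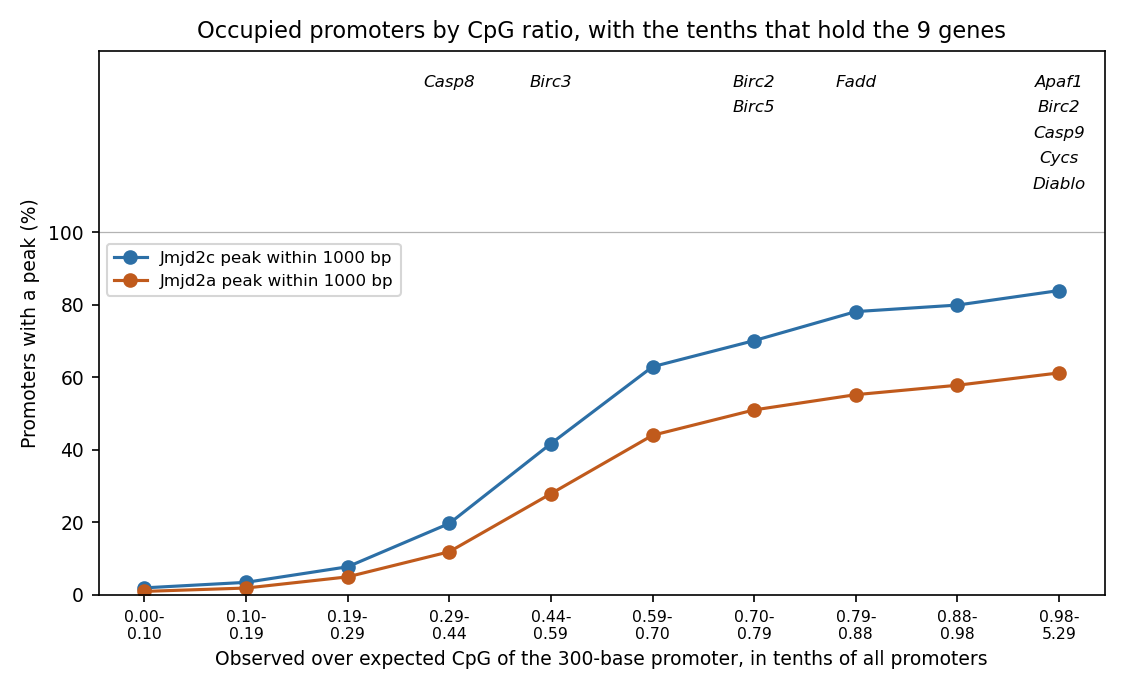
Share of promoters of protein-coding genes with a Jmjd2c peak (blue) or a Jmjd2a peak (orange) within 1000 bp, for 10 equal groups of 20488 promoters ordered by observed over expected CG ratio (x axis, range of each group); gene names stand above the group that holds them, Birc2 once for each of its RefSeq starts. The Jmjd2c share goes from 1.95% to 83.9%, and Casp8 and Birc3 lie in groups with 19.7% and 41.7%.

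Short motifs were searched on both strands of the same 300 bases, over 10 promoters of the 9 genes. Since all 9 genes had Jmjd2c, each share over all 20488 promoters is followed by the share over promoters with Jmjd2c. The TATA box, TATAAA, was in none of them, in 12.4% of all promoters and in 5.33% of those with Jmjd2c. The GC box, GGGCGG, to which SP1 family factors bind, was in 7 of the 10 promoters, 1 for each of 7 genes, in 47.6% of all promoters and in 69.8% of those with Jmjd2c, so the members' count was that of promoters with Jmjd2c in general. Casp8 and Birc3 were the genes without it. The NRF1 core, GCATGCG, was in Apaf1, Cycs and Fadd, in 4.58% of all promoters and in 7.56% of those with Jmjd2c. The first of its overlapping matches at Cycs began at base -61, counted from the start site as 0. NRF1 is a regulator of genes for respiration. The cyclic AMP response element core, TGACGT, was in Cycs and Birc2 (8.72% and 13%), with overlapping matches on opposite strands at each. CCAAT was in Birc2, Casp8, Cycs and Diablo (38.4% of either set), the ETS core CTTCCGG in Birc2 and Diablo (11.9% and 21.8%), and the kappaB motif in Birc5 (4.9% and 5.24%). The E-box CACGTG was in none of the 10 (8.03% and 10.8%). No motif was shared by Apaf1 and Diablo and missing from all 7 genes with Jmjd2c alone, since the GC box, the only motif in both, was also at Casp9, Cycs, Fadd, Birc2 and Birc5. A match describes the letters and shows no binding.

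The other genes of the pathway were read from lists of 37 genes grouped by role. Of these, 24 (64.9%) had Jmjd2c at a start site, 11 (29.7%) had Jmjd2a and 10 (27%) had both. The shares over protein-coding genes were 44.6%, 32.3% and 28.9% in the same order, so the counts with Jmjd2a and with both lay near the background. One gene, Casp1, had Jmjd2a alone, and 12 had neither. Of the 24 with Jmjd2c, 10 (41.7%) had Jmjd2a too, and over protein-coding genes with Jmjd2c the share was, as above, 64.9%.

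Of 6 other caspase genes, 3 (50%) had Jmjd2c and 2 (33.3%) had Jmjd2a, beside 44.6% and 32.3% of protein-coding genes. Casp6 had a Jmjd2c peak of 732 bp without Jmjd2a. Casp2, which responds to DNA damage and centrosome signals, had both (1000 bp for Jmjd2a, 1352 bp for Jmjd2c). The inflammatory caspases on chromosome 9 were split. Casp1 had a Jmjd2a peak of 400 bp over its start (5298277 to 5298676) and no Jmjd2c peak, Casp4 had a Jmjd2c peak of 757 bp alone, and Casp12 had neither. Casp14, a caspase of the epidermis, had neither as well.

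Among the other inhibitors 3 of 8 (37.5%) had Jmjd2c and 1 (12.5%) had Jmjd2a, beside 44.6% and 32.3% of protein-coding genes. Xiap, the direct inhibitor of caspases, had 1763 bp and Birc6 1150 bp, both without Jmjd2a, and Cflar had both proteins. Birc7 and the 4 Naip genes had no called peak. The Naip genes are close copies of each other in a cluster on chromosome 13, and the sources used here do not say how reads that map to several copies were treated. With Birc2, Birc3 and Birc5, each BIR-domain gene that had a peak thus had Jmjd2c alone. Among protein-coding genes with Jmjd2c, 64.9% also had Jmjd2a. These BIR-domain genes are few and were chosen with earlier results known, and the difference was not tested.

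Among the other mitochondrial factors, Htra2 (477 bp for Jmjd2a, 886 bp for the wider of its Jmjd2c peaks) had both proteins. This Jmjd2c peak (83053626 to 83054511) and the Jmjd2a peak (83054802 to 83055278) did not overlap, unlike those at Diablo. The nuclease gene Endog (1186 and 1495 bp) had both proteins as well. Aifm1 had Jmjd2c alone and Septin4 neither. Of 12 genes for death receptors, ligands and adaptors, 8 (66.7%) had Jmjd2c and 3 (25%) had Jmjd2a as well. Those 3 were the adaptor genes Tradd, Traf2 and Cradd. Over protein-coding genes the shares were 44.6% for Jmjd2c, 32.3% for Jmjd2a and 28.9% for both. The receptors Fas (1500 bp), Tnfrsf1a (1244 bp) and Tnfrsf10b (930 bp), the kinase gene Ripk1 and Pidd1 had Jmjd2c alone, like Fadd and Casp8. The ligand genes Fasl, Tnf and Tnfsf10 and the adaptor gene Traf1 had no peak within 1000 bp of a start.

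Downstream of the caspases, the DNA fragmentation genes Dffa (513 and 885 bp) and Dffb (1100 and 1804 bp) and the repair gene Parp1 (1057 and 1519 bp) had both proteins, and Acin1 had Jmjd2c alone. The partners of survivin in the passenger complex, Aurkb (1652 bp), Incenp (2030 bp) and Cdca8 (1378 bp), had Jmjd2c and no Jmjd2a, as Birc5 did. Over protein-coding genes with Jmjd2c, 64.9% also had Jmjd2a. The partners are few and were chosen with earlier results known, and the difference was not tested. The lists hold 3 to 12 genes each and no difference between them was tested.

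**Figure D4:**
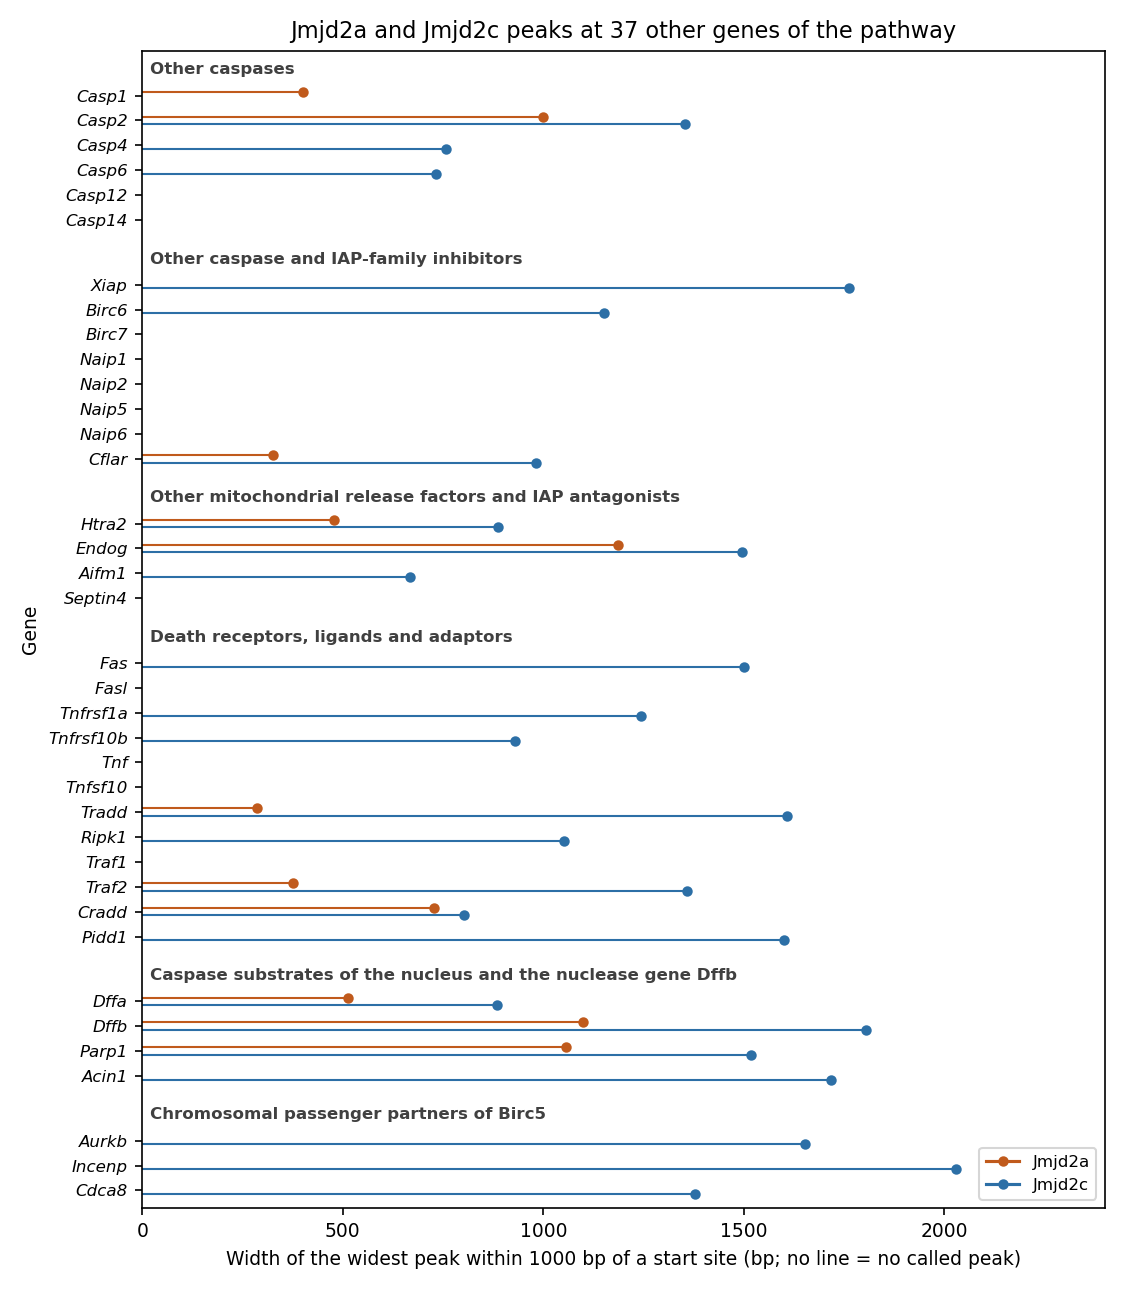
Width in bp of the widest Jmjd2a peak (orange) and Jmjd2c peak (blue) within 1000 bp of a start site for 37 other genes of the pathway, grouped by role; a gene with no line has no called peak there. Blue lines are present for 24 genes and orange for 11, the Birc5 partners have blue alone, and the Naip genes and the ligand genes have none.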

How the data were processed

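The authors deposited called regions for Jmjd2a and for Jmjd2c as positions in bp, each with RefSeq features and the nearest start site and its distance, per the file headers, and windows of 1 kb on either side of co-bound starts. The tools named are Bowtie 0.12.7, bedtools 2.25.0 and SAMtools, with build mm10, per the submitters' processing notes. The sources used here name no peak caller, threshold, control or pooling, and a shallow library would miss weak sites.

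Positions were read as counting from 0 with an open end and are printed counting from 1. Distances recomputed this way matched the deposited ones for all 17422 peaks with 1 start site named. A gene counted as having a protein when a peak lay within 1000 bp of any start site that the tables list under its name. Where a peak names several sites, genes were placed by the gene ends of RefSeq (GRCm38.p6). Of 17007 accessions 16875 matched that table. Overlap meant at least 1 bp. Promoter sequences and RefSeq start sites came from a RefSeq promoter table on GRCm38.p6, which had all 9 genes and 32 of the 37 pathway genes. The named genes are the 9 members, genes sharing or neighbouring their peaks, and the pathway lists. The members and lists were chosen with earlier results of these data known, so no list was tested. Some genes are not reported here. The distance and overlap steps were checked on planted peaks. Alternatives were windows of 500 and 5000 bp, the wider 50% of each list (the lists hold no score), the nearest-gene column at any distance, 2 other overlap rules and, added after seeing the data, RefSeq start sites. Python 3.11.15 and matplotlib 3.10.9 were used.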

Additional observations from a re-analysis of the deposited data

How the results depend on the processing

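Keeping the wider 50% of each list changed the counts most. Members with Jmjd2a went from 2 to 1 and members with both from 2 to 1, as Diablo was lost, and pathway genes went from 11 to 5 for Jmjd2a and from 24 to 13 for Jmjd2c. Members with Jmjd2c went from 9 to 6 (Birc3, Casp8 and Diablo lost). The shares over all protein-coding genes fell too, from 44.6% to 26.8% for Jmjd2c and from 32.3% to 19.5% for Jmjd2a. Width is not signal, and what a stricter caller threshold would remove is unknown.

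Of the other alternatives run, a 500 bp window left 8 members with Jmjd2c, without Birc2, whose peak covers its RefSeq starts. With the RefSeq start sites, an alternative chosen after seeing the data, 9 members had Jmjd2c and 2 had Jmjd2a. The pathway counts there were 19 for Jmjd2c and 9 for Jmjd2a, of 32 genes, because 5 genes are not in that table. Over the 16853 protein-coding genes with a start there, the shares were 46.4% for Jmjd2c and 33.2% for Jmjd2a. A 5000 bp window and the nearest-gene column left the member counts at 9 and 2, and the overlap rules left both start-site Jmjd2a peaks overlapping Jmjd2c. With the nearest-gene column at any distance, 13 pathway genes had Jmjd2a (Septin4 and Tnfsf10 gained) and 26 had Jmjd2c (Fasl and Tnfsf10 gained). Over protein-coding genes the shares by that column were 35.1% and 46.6%. Depth per library is unknown, so a missing Jmjd2a call at 7 genes does not show that the protein is absent.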
